A study of Mus musculus with 18 samples.

Results

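The receptors by which microglia recognise and take up dying cells and lipid-rich debris were followed in striatal microglia of 4 genotype groups. The set holds 10 genes, chosen by symbol: the TAM receptors Axl, Mertk and Tyro3, their ligands Gas6 and Pros1, and the scavenger and endocytic receptors Cd36, Msr1, Lrp1, Stab1 and Scarb1. Each symbol matched 1 of the 55536 genes of the count table, and all 10 passed the filter on low counts in every comparison. The groups were 5 WT, 3 Tyrobp-KO, 5 Q175 and 5 Q175;Tyrobp-KO samples of adult C57BL/6 mice. Q175 is a knock-in model of Huntington's disease, heterozygous in this study, in which an expanded CAG repeat sits in the huntingtin gene and is therefore present in all cells. Tyrobp-KO mice lack Tyrobp (DAP12), the adaptor through which TREM2 and other myeloid receptors signal, and the deletion is likewise not limited to microglia. Cells were enriched on magnetic beads that bind CD11b, which microglia share with other myeloid cells. By the labels a sample pooled 2 striata, by the methods it was 1 striatum, and no label says which samples, if any, share a mouse, so the p-values measure the spread between these samples.

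The TAM receptors are receptor tyrosine kinases that bind phosphatidylserine on apoptotic cells indirectly, through the bridging proteins GAS6 and protein S (Pros1). In brain, MERTK is the TAM receptor of resting microglia, AXL appears on microglia that respond to injury or disease, and TYRO3 is made largely by neurons. The scavenger receptors differ in what they bind: CD36 takes up oxidised lipids, MSR1 modified lipoproteins, LRP1 apolipoprotein E and many other ligands, stabilin 1 modified lipoproteins and extracellular matrix proteins, and SR-BI (Scarb1) high-density lipoprotein.

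The members lie on 7 chromosomes of GRCm38. Axl (ENSMUSG00000002602) is at chr7:25757273-25788705, 4.625 Mb from Tyrobp on the same chromosome, so for Axl an effect of linked sequence and one of the deletion cannot be told apart. Mertk (ENSMUSG00000014361) is at chr2:128698956-128802894 and Tyro3 (ENSMUSG00000027298) at chr2:119797733-119818104. The ligand genes are Gas6 (ENSMUSG00000031451) at chr8:13465374-13494490 and Pros1 (ENSMUSG00000022912) at chr16:62854307-62929346. Cd36 (ENSMUSG00000002944) is at chr5:17781690-17888801, Scarb1 (ENSMUSG00000037936) at chr5:125277087-125341094 and Msr1 (ENSMUSG00000025044) at chr8:39581685-39642673. Lrp1 (ENSMUSG00000040249) is at chr10:127538161-127621148 and Stab1 (ENSMUSG00000042286) at chr14:31139013-31168641. All 10 are protein-coding. Gas6 shares 34 exonic bases with Tmem255b and Stab1 shares 112 with Nt5dc2, each on the opposite strand. The libraries were non-directional, so reads in those bases cannot be assigned to a strand, although Tmem255b had 156 counts and Nt5dc2 2153 over all 18 samples.

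RefSeq's promoter table for GRCm38.p6 held a window for 8 of the 10 members. The 250 bases before the annotated start are shown for Axl, Cd36 and Gas6, which together with Msr1, a gene with no window in that table, had the smallest unadjusted p-values when the samples were compared by Tyrobp deletion. All 3 genes are on the minus strand, and the windows are chr7:25788734-25788983 for Axl, chr5:17835897-17836146 for Cd36 and chr8:13494536-13494785 for Gas6. The Cd36 window lies inside the Cd36 gene as GENCODE annotates it, outside every annotated exon, and the other windows overlap no annotated gene. They are written 5′ to 3′ in the direction of transcription, with matches to 3 motifs in capitals on either strand: the core of the PU box (GAGGAA), which the myeloid factor PU.1 binds, the AP-1 site (TGANTCA) and the GC box (GGGCGG).
Axl: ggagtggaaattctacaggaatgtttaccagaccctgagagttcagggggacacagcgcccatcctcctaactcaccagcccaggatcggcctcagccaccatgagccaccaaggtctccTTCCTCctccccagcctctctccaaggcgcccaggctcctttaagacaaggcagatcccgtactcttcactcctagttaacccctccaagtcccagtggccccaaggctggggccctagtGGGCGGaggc
Cd36: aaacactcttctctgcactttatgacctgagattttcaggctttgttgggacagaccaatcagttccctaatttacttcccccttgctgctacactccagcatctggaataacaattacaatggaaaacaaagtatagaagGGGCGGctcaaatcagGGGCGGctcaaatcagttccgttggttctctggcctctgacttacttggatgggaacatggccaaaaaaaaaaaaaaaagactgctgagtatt
Gas6: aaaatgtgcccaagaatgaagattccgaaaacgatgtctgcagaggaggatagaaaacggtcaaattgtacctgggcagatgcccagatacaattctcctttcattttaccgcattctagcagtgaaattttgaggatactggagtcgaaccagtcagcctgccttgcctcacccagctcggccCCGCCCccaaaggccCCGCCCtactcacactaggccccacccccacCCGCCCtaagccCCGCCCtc
The Axl window held 1 PU box core, which starts 130 bases before the transcription start, and 1 GC box. The Cd36 window held 2 GC boxes and the Gas6 window 4, and neither held the PU box core. Across the 8 windows, 2 members (Axl and Stab1) held the PU box core, 7 held a GC box and 0 held the AP-1 site. Over all 32851 windows of the table the shares were 23.3%, 32.7% and 6.75% in the same order. No motif overlapped another in the 3 windows printed, and a match describes the letters of the window and says nothing of whether a factor is bound there.

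Tyrobp, the targeted gene, was lower in every sample with the deletion than in any sample without it. Its level was 198 to 442 CPM (counts relative to the TMM-scaled library total) in WT and 216 to 388 in Q175, against 17.1 to 22.3 in Tyrobp-KO and 9.59 to 15.2 in Q175;Tyrobp-KO. Total counts were between 11260410 and 29771983 per sample. All 15 microglial markers were at or above 1 CPM in every sample, with a geometric mean level of 479 to 1262 CPM. Oligodendrocyte markers (9 genes, 108 to 461), astrocyte markers (11 genes, 22.9 to 142) and neuronal markers (12 genes, 10.6 to 52.9) were also detected throughout. Lists for monocytes and neutrophils, border-associated macrophages, endothelial cells, mural cells and fibroblasts, and ependymal and choroid plexus cells stayed at or below 18.7, and Lyve1, Pf4, Folr2, Acta2, Lum, Kl, Folr1, Ccdc153, Ngp and Camp were each at 0 in at least 1 sample. In bulk samples such as these, fewer cells of a type and less RNA per cell cannot be told apart. WT replicates 7 and 8 stood apart from WT replicates 1, 2 and 6: over 9584 protein-coding genes other than the members, log2 CPM correlated at 0.943 between replicates 7 and 8 and at 0.936 to 0.969 among the other WT samples, but at 0.816 to 0.926 between these sets. Tyrobp-KO replicate 20 stood apart from replicates 15 and 19 in the same way, with correlations of 0.820 and 0.840 where those correlated at 0.970. Its astrocyte markers were at 119 CPM (at most 44.2 in the others) and its microglial markers at 749 (1200 and 1262). The Q175 samples correlated at 0.858 to 0.957 and the Q175;Tyrobp-KO samples at 0.878 to 0.981. Some member results that touch WT are therefore also given without WT replicates 7 and 8, an alternative chosen after the data were seen. Some that touch Tyrobp-KO are also given without replicate 20.

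Mertk was the most abundant member in WT microglia and Msr1 the least. To compare genes, CPM was divided by the exonic length in kilobases. The WT medians on this scale were 106 for Mertk, 84.7 for Pros1, 42.5 for Lrp1, 33.5 for Gas6, 20.9 for Stab1, 19.1 for Tyro3, 9.79 for Axl, 3.88 for Scarb1, 1.34 for Cd36 and 0.511 for Msr1. The ranges of neighbours in this order overlapped for every pair from Mertk down to Scarb1. Compared within each of the 5 WT samples, Lrp1 was above Gas6 and Axl above Scarb1 in all 5, Mertk was above Pros1 in 4, Pros1 above Lrp1, Stab1 above Tyro3 and Tyro3 above Axl in 3 each, and Gas6 above Stab1 in 2. Scarb1 was above Cd36, and Cd36 above Msr1, in all 5 WT samples without overlap. Within the TAM family Mertk lay above Tyro3 and Axl in every WT sample, and the medians of both ligand genes were above that of Axl. The scavenger receptors at the bottom of the order rest on few reads: Cd36 had 17 to 199 counts per sample over all groups and Msr1 19 to 174, whereas Mertk had 3316 to 18855.

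**Figure D1:**
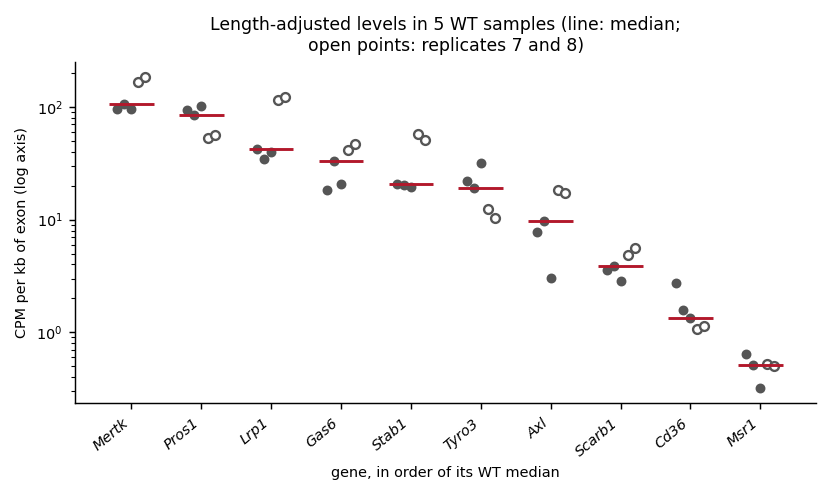
CPM per kilobase of exon (log axis) of the 10 genes in the 5 WT samples, in order of their medians (red lines). Open points are replicates 7 and 8, which lie above the other WT samples for Mertk, Lrp1, Gas6, Stab1, Axl and Scarb1 and below them for Pros1, Tyro3 and Cd36.

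Replicates 7 and 8 widened the WT range of most members. For Lrp1 they were at 2056 and 2173 CPM, while WT replicates 1, 2 and 6 lay between 614 and 753. Stab1 was at 530 to 590 in replicates 7 and 8 and at 200 to 215 in the other WT samples. Axl was at 87.3 to 91.9 against 15.2 to 49.3. In the opposite direction, Tyro3 was at 63.6 to 77.3 in replicates 7 and 8 and at 118 to 197 in the others, and Pros1 at 216 to 233 against 346 to 414. Msr1 was the member for which these samples fell within the range of the others (3.18 and 3.34 CPM, against 2.04 to 4.10). Replicate 7 was the female of the WT group and replicate 8 a male.

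**Figure D2:**
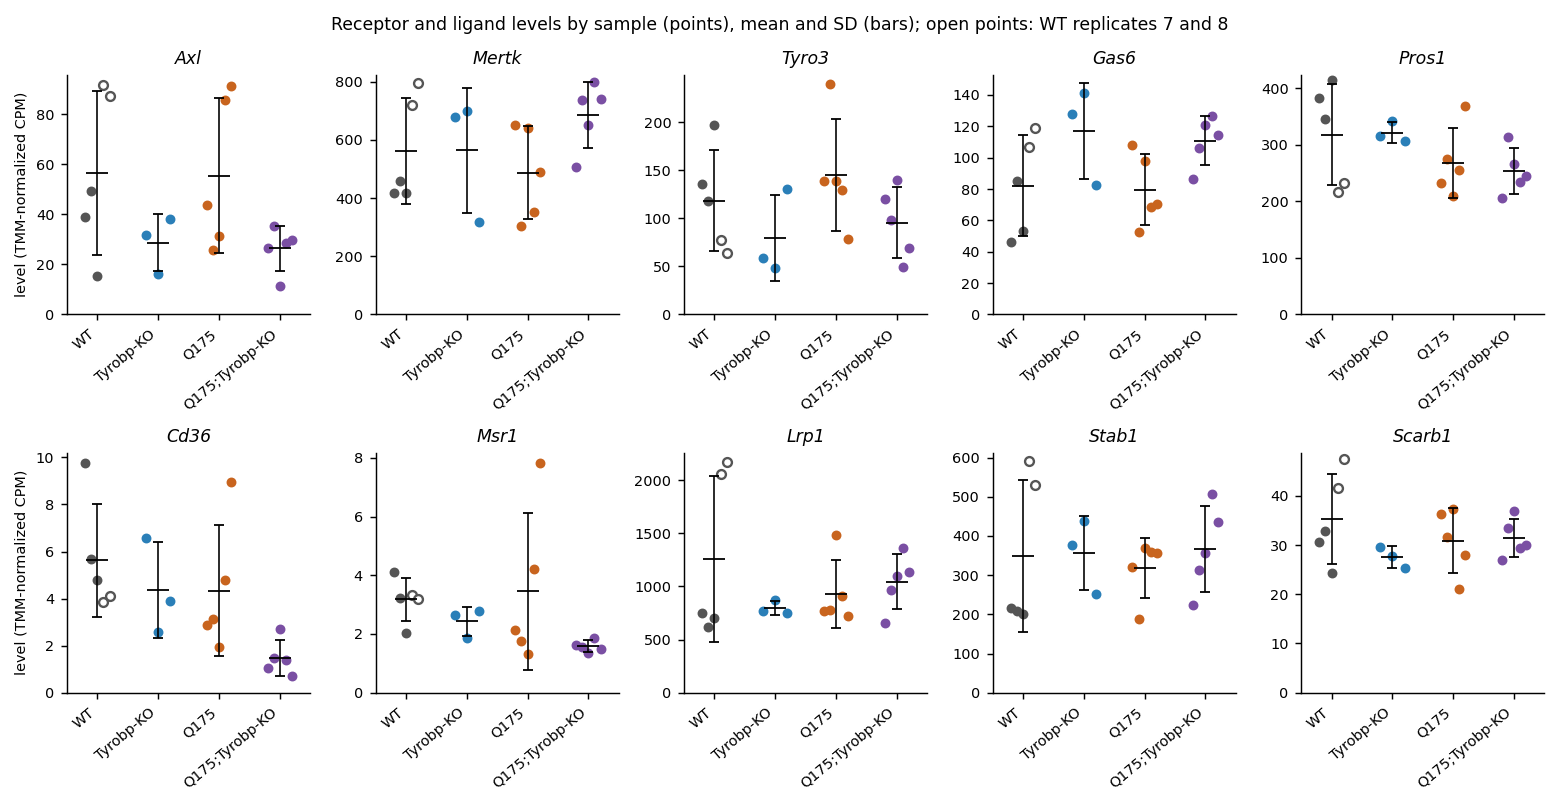
Level of each gene in CPM (TMM-scaled, linear axes from 0) in every sample, by genotype group, with the mean and SD in black and WT replicates 7 and 8 as open points. In Q175;Tyrobp-KO samples Cd36 lay between 0.729 and 2.72 CPM, against 1.93 to 8.94 in Q175, and Axl between 11.5 and 35.6, against 25.6 to 91.4, while every panel shows overlap between Q175 and Q175;Tyrobp-KO.

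The first comparison asks what the Huntington's disease allele did to these genes while Tyrobp was intact. No member passed an FDR of 0.1 in Q175 against WT. edgeR called 0 of 10 members, beside 0.0% of the 18266 genes tested, and DESeq2 also called 0, beside 1.28%. At an unadjusted p under 0.05 edgeR had 0 members higher and 0 lower, where 5.47% of all genes were higher and 0.766% lower. No member's groups were free of overlap, against 1.16% of all genes. The log2 fold changes ran from -0.44 ± 0.38 (SE) for Lrp1 to 0.28 ± 0.34 for Tyro3, with 2 members higher and 8 lower and a median of -0.17 beside -0.022 over all genes. Mertk, at 562 ± 182 CPM in WT and 487 ± 159 in Q175 (SD, n = 5 each), had a log2 fold change of -0.22 ± 0.27, and Pros1, at 318 ± 89.3 and 268 ± 61.6, one of -0.27 ± 0.23. The other values were -0.031 for Axl, -0.056 for Gas6, -0.40 for Cd36, 0.11 for Msr1, -0.14 for Stab1 and -0.21 for Scarb1. For 7 of the 10 genes the sign depended on WT replicates 7 and 8. Without them, Axl went to 0.64, Stab1 to 0.56, Lrp1 to 0.38 and Gas6 to 0.32, Mertk and Scarb1 also changed sign to 0.12 and 0.029, and Tyro3 to -0.083, none of them passing the FDR. Sex was unequal, with 1 female of 5 in WT and 4 of 5 in Q175, and no member passed with sex as a term either. With that term the values ran from -0.66 for Cd36 to 0.50 for Tyro3, with Axl at -0.61 ± 0.53. With a score of astrocyte, neuronal and oligodendrocyte markers as a term they ran from -1.25 for Cd36 to 0.64 for Tyro3. Axl then had -1.24 ± 0.85, and no member passed.

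The second comparison asks what losing Tyrobp did in Q175 microglia, and it held the widest differences among the members. Cd36, the receptor for oxidised lipids, had 2.88, 3.13, 1.93, 4.80 and 8.94 CPM in Q175 replicates 3, 4, 9, 14 and 17 and 1.03, 1.46, 2.72, 1.41 and 0.729 in Q175;Tyrobp-KO replicates 5, 11, 12, 13 and 16. Q175;Tyrobp-KO replicate 12 was the sample that entered the Q175 range, above Q175 replicate 9, so that 1 of 25 pairs of samples ran against the others. The log2 fold change was -1.55 ± 0.44 (edgeR unadjusted p = 0.00397, adjusted p = 0.533).

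Axl, the TAM receptor of responding microglia, had 43.8, 25.6, 31.2, 85.8 and 91.4 CPM in the Q175 samples in the same order and 26.7, 35.6, 11.5, 28.6 and 29.9 in the Q175;Tyrobp-KO samples. Q175 replicates 3, 14 and 17 were above every Q175;Tyrobp-KO sample, and Q175 replicates 4 and 9 lay within their range. The log2 fold change was -1.07 ± 0.37 (edgeR unadjusted p = 0.0134, adjusted p = 0.533).

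Msr1, the class A scavenger receptor for modified lipoproteins, had 2.14, 1.75, 1.33, 4.21 and 7.82 CPM in Q175 and 1.64, 1.56, 1.34, 1.88 and 1.5 in Q175;Tyrobp-KO. The Q175;Tyrobp-KO samples kept to a narrow band, and Q175 replicates 3, 14 and 17 again lay above all of them while replicate 9 was the lowest of all. The log2 fold change was -1.12 ± 0.43 (edgeR unadjusted p = 0.0223, adjusted p = 0.533), and it was -0.60 without Q175 replicate 17. For Cd36 the value without that sample was -1.14.

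In the other direction, Gas6, the ligand of all TAM receptors, had 108, 52.8, 97.8, 68.4 and 70.4 CPM in Q175 and 86.6, 106, 121, 126 and 114 in Q175;Tyrobp-KO. Q175 replicates 3 and 9 lay inside the Q175;Tyrobp-KO range and the other Q175 samples below it. The log2 fold change was 0.46 ± 0.19 (edgeR unadjusted p = 0.0299, adjusted p = 0.533).

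Mertk had 650, 305, 640, 352 and 490 CPM in Q175 and 507, 738, 650, 798 and 740 in Q175;Tyrobp-KO. As for Gas6, Q175 replicates 3 and 9 overlapped the other group, and 22 of 25 pairs had the higher value in Q175;Tyrobp-KO for either gene. The log2 fold change of Mertk was 0.48 ± 0.22 (edgeR unadjusted p = 0.05 after rounding, adjusted p = 0.533). Microglial markers were at 479 to 1094 CPM in Q175 and 730 to 1051 in Q175;Tyrobp-KO, and with that level as a term the fold changes were 0.27 for Mertk and 0.32 for Gas6. The marker list holds C1qa, C1qb and C1qc, and the paper reports lower C1q in Q175 striatum without Tyrobp. The term may therefore itself differ with genotype, which was not tested.

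Tyro3 had 139, 239, 139, 130 and 78.2 CPM in Q175 and 121, 98.1, 140, 49.4 and 69.3 in Q175;Tyrobp-KO, a log2 fold change of -0.64 ± 0.33 (edgeR unadjusted p = 0.0728). Q175 replicate 4, the highest of these samples for Tyro3, was also the lowest for Mertk, for Gas6 and for the microglial markers, and without it the fold change was -0.35. The remaining members had small values: -0.10 ± 0.16 for Pros1, 0.15 ± 0.24 for Lrp1, 0.20 ± 0.23 for Stab1 and less than 0.01 in size for Scarb1.

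Counted together, edgeR called 0 of 10 members in Q175;Tyrobp-KO against Q175, where it called 0.0111% of 18059 genes, and DESeq2 called 0 beside 0.227%. At an unadjusted p under 0.05, 2 members were higher (Mertk and Gas6), where 3.45% of all genes were, and 3 were lower (Cd36, Axl and Msr1), where 4.56% were. The groups overlapped for all 10 members, and 0.853% of all genes had no overlap. The median log2 fold change of the members was -0.051 beside -0.045 over all genes, with 4 members higher and 6 lower. Sex was unequal here too, with 4 females of 5 in Q175 and 2 of 5 in Q175;Tyrobp-KO. With sex as a term Cd36 had -1.64 (edgeR unadjusted p = 0.0175), while Axl (-0.83), Msr1 (-0.80), Gas6 (0.37) and Mertk (0.37) had unadjusted p-values of 0.0699 to 0.143.

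The next comparison asks the same of the deletion in mice without the Q175 allele. edgeR called 0 of 10 members in Tyrobp-KO against WT (0.0222% of 18017 genes) and DESeq2 0 (0.932%). At an unadjusted p under 0.05 edgeR had 0 members higher (3.66% of all genes) and 0 lower (3.15%), and 0 without overlap (4.5%). Axl had the smallest p: its 3 Tyrobp-KO samples were at 31.6, 16 and 38.3 CPM and the 5 WT samples at 39.0, 49.3, 15.2, 91.9 and 87.3. WT replicate 6 was the lowest of these and the other WT samples were all above the Tyrobp-KO samples. The log2 fold change was -0.97 ± 0.52 (edgeR unadjusted p = 0.0881), and -0.28 without WT replicates 7 and 8. Gas6 had 128, 141 and 82.7 CPM in Tyrobp-KO and 46.3, 85.3, 53.2, 107 and 119 in WT, a log2 fold change of 0.51 ± 0.32. The values were -0.59 ± 0.44 for Tyro3, -0.66 ± 0.46 for Lrp1, -0.36 ± 0.22 for Scarb1, -0.39 ± 0.42 for Cd36 and -0.39 ± 0.34 for Msr1. Stab1 was at 0.025 ± 0.41, and Mertk and Pros1 were within 0.01 of 0, with errors of 0.33 and 0.26. The members had a median of -0.37, beside 0.017 over all genes. The share of females also differed, at 1 of 5 in WT and 2 of 3 in Tyrobp-KO. With sex as a term no member passed the FDR. With WT replicates 7 and 8 left out, the value of Lrp1 went from -0.66 to 0.18. Mertk was at 317 CPM in Tyrobp-KO replicate 20 and at 677 and 698 in the other Tyrobp-KO samples. Without replicate 20, Mertk had 0.25, Stab1 0.18, Axl -1.28 and Tyro3 -1.19 (edgeR unadjusted p = 0.0201, adjusted p = 0.308), and no member passed the FDR. The balance of long over short transcripts was -0.230 to -0.189 in Tyrobp-KO and -0.192 to 0.237 in WT on the log2 scale, and with it as a term Lrp1 had 0.66 and Mertk 0.56.

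When both deleted groups (8 samples) were set against both groups with Tyrobp (10 samples), with Q175 status as a term, 5 members had an unadjusted p under 0.05 and 0 passed the FDR. Axl had a log2 fold change of -1.05 ± 0.33 (edgeR unadjusted p = 0.00458, adjusted p = 0.376), and its value was higher in a deleted sample in 16 of 80 pairs. Cd36 had -1.06 ± 0.33 (edgeR unadjusted p = 0.00512, adjusted p = 0.391) and Msr1 -0.83 ± 0.29 (edgeR unadjusted p = 0.00927, adjusted p = 0.43). Tyro3 had -0.64 ± 0.28 (edgeR unadjusted p = 0.0352, adjusted p = 0.527) and, with the microglial marker level as a term, -0.15. Gas6, the member that was higher, had 0.45 ± 0.18 (edgeR unadjusted p = 0.018, adjusted p = 0.474) and 0.20 with that term. Axl, Cd36 and Msr1 had -1.18, -1.14 and -0.95 with that term, each farther from 0 than without it.

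The 4 lower and 1 higher members of this pooled comparison stand beside 7.41% of 18613 genes lower and 1.4% higher at the same unadjusted p. edgeR called 0.161% of all genes and DESeq2 0.811%, with 0 members in either, and 0.0698% of genes but 0 members were without overlap. This comparison uses the samples of both earlier deletion comparisons again and is no separate evidence. Mertk (0.25 ± 0.20), Stab1 (0.094 ± 0.23), Pros1 (-0.087 ± 0.14), Scarb1 (-0.18 ± 0.14) and Lrp1 (-0.22 ± 0.27) had unadjusted p-values between 0.206 and 0.687. Without Tyrobp-KO replicate 20 the value of Mertk was 0.42 (edgeR unadjusted p = 0.0312, adjusted p = 0.221) and that of Tyro3 -0.82. In that fit 6 members were under 0.05, but so were 3497 of 18578 genes, against 1639 of 18613 in the main fit. The median over the members was -0.20, and over all genes -0.022.

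**Figure D3:**
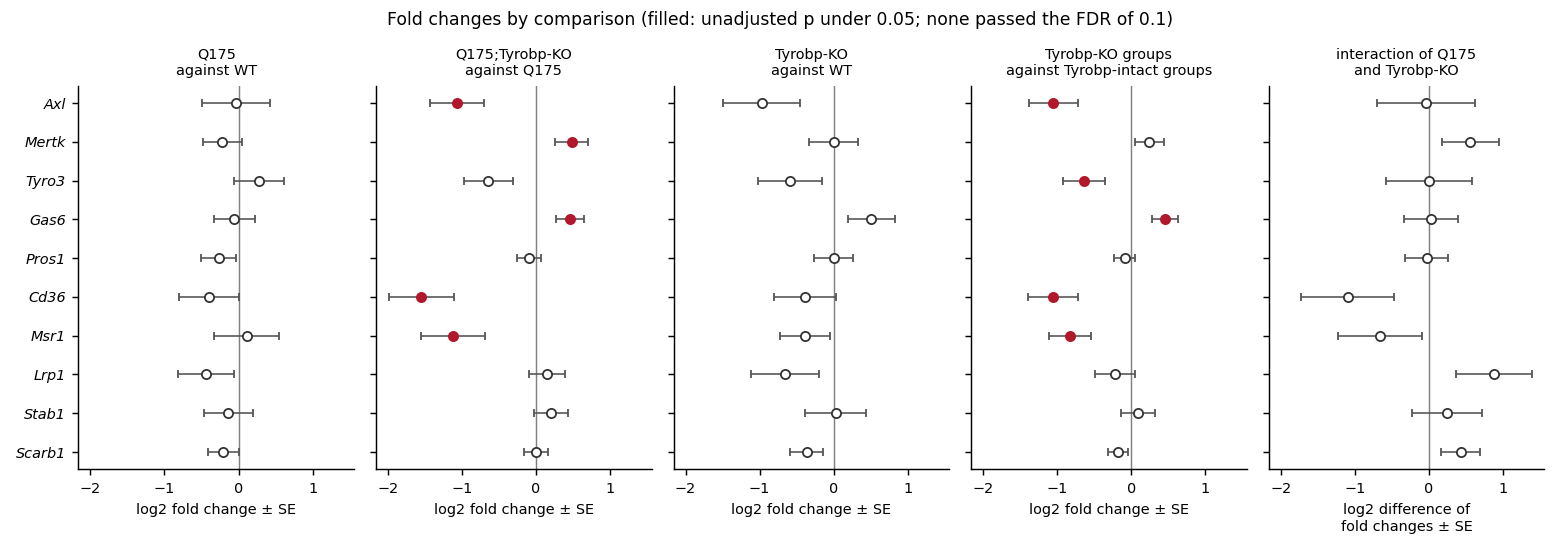
Log2 fold change ± SE of each gene in the 4 comparisons and, at the right, the difference between the deletion's log2 fold change in Q175 mice and in mice without Q175. Filled points have an unadjusted edgeR p under 0.05. Axl and Cd36 lie near -1 in the pooled comparison, Gas6 near 0.5, and no point passed an FDR of 0.1.

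Whether the deletion acted differently in Q175 mice was tested as an interaction. edgeR called 0 members and 0.0% of 18613 genes, and DESeq2 0 members and 0.0107%. At an unadjusted p under 0.05 edgeR had 0 members in either direction, beside 2.99% of genes higher and 3.02% lower. Cd36 had the smallest p, with a difference of -1.09 ± 0.63 on the log2 scale (edgeR unadjusted p = 0.0987), followed by Lrp1 with 0.88 ± 0.51 (unadjusted p = 0.103), which was 0.041 without WT replicates 7 and 8. Over 30 alternatives the value of Cd36 ran from -1.44 to -0.28. Axl differed by -0.036 ± 0.66, an error too wide to show that the deletion had equal effects in both backgrounds. The values of the others ran from -0.67 ± 0.57 for Msr1 to 0.56 ± 0.39 for Mertk, with Tyro3 (0.004), Gas6 (0.027) and Pros1 (-0.031) near 0, Stab1 at 0.25 and Scarb1 at 0.43. Without Tyrobp-KO replicate 20 Tyro3 went to 0.58, Axl to 0.24, Gas6 to -0.17, Stab1 to 0.047 and Mertk to 0.27, and Cd36 to -1.18, none of them with an unadjusted p under 0.1.

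Across all 18 samples, the genes that follow the microglial marker level were Mertk, Gas6, Stab1 and, inversely, Tyro3. Of 100 relations (10 members against 9 marker lists and the balance of long over short transcripts in each sample), 15 passed an adjusted permutation p of 0.05 by Pearson's r and 13 also by Spearman's rho. Gas6 had r = 0.81 with the microglial level (rho = 0.76, permutation p = 6e-05 and 0.00041, adjusted p = 0.0015 and 0.0108). It was 0.72 without Q175 replicate 4 and WT replicate 6, the samples farthest from the median, and 0.76 within groups. Mertk had r = 0.78 (rho = 0.70, permutation p = 9e-05 and 0.00183, adjusted p = 0.0015 and 0.0229), 0.68 without those samples and 0.82 within groups. Stab1 had r = 0.69 (rho = 0.63, permutation p = 0.00135 and 0.00554, adjusted p = 0.016 and 0.0426) and 0.54 without them. Tyro3 ran the other way at r = -0.84 (rho = -0.75, permutation p = 2e-05 and 0.00054, adjusted p = 0.0015 and 0.0108), -0.75 without them and -0.80 within groups. With WT replicates 7 and 8 left out these were 0.81, 0.80, 0.75 and -0.85 in the same order.

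The level of mural cell and fibroblast markers, which was low throughout (1.43 to 4.70 CPM), was related to the same genes with the opposite sign. The r values were -0.85 for Mertk (rho = -0.87, permutation p = 7e-05 and 2e-05, adjusted p = 0.0015 and 0.002), -0.83 for Stab1 (rho = -0.76), -0.70 for Gas6 (rho = -0.74) and 0.80 for Tyro3 (rho = 0.67). Without the 2 samples farthest from the median the r values were -0.78, -0.77, -0.60 and 0.70. Their part in the differences between groups was not tested. Scarb1 was related to the length balance (r = 0.69, rho = 0.73) and inversely to monocyte and neutrophil markers (r = -0.69, rho = -0.78) and border-associated macrophage markers (r = -0.66, rho = -0.64). Lrp1, the member with the longest exonic sequence (17717 bases), was related to the length balance (r = 0.66, rho = 0.65), in which WT replicates 7 and 8 had 0.212 and 0.237 on the log2 scale. Mertk was also inversely related to endothelial markers (r = -0.65, rho = -0.65) and, by Pearson's r but not by rho, to neuronal markers (r = -0.67, rho = -0.55). The same held for Scarb1 and neuronal markers (r = -0.64, rho = -0.50). For Axl, Cd36 and Msr1 no relation passed, and their r with the microglial level was 0.07, -0.12 and 0.04.

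**Figure D4:**
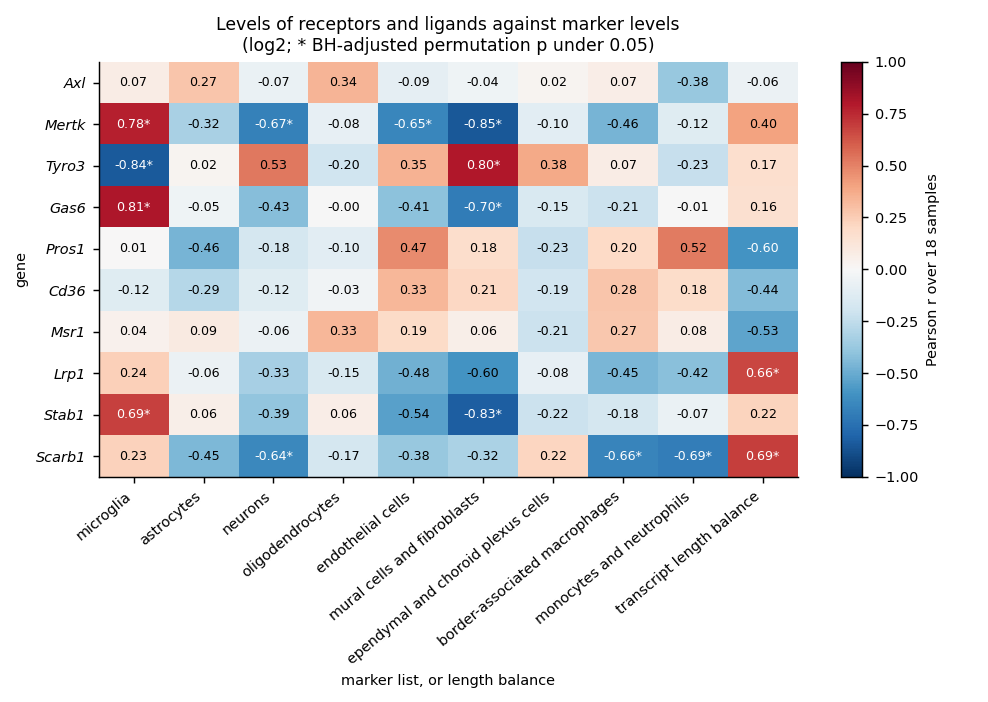
Pearson r over 18 samples between log2 CPM of each gene (rows) and the log2 level of 9 marker lists or the length balance (columns). Stars mark adjusted permutation p-values under 0.05. Mertk, Gas6 and Stab1 share a positive r with microglial markers (0.69 to 0.81), Tyro3 has -0.84, and the rows of Axl, Cd36 and Msr1 hold no star.

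Among the members themselves, Mertk, Gas6 and Stab1 ran together, and Tyro3 ran against them. Mertk and Gas6 had the highest r of any pair of members (0.83, and 0.89 within groups). Lrp1 and Stab1 (0.80, within groups 0.86), Cd36 and Msr1 (0.79, 0.67), Mertk and Stab1 (0.77, 0.80) and Axl and Msr1 (0.75, 0.69) followed. Axl and Cd36 had 0.37 (0.11 within groups), and Cd36 and Pros1 0.61 (0.59). Tyro3 ran against Stab1 (-0.78), Gas6 (-0.73) and Mertk (-0.72). These r values are descriptions over the same 18 samples, whose depth and cell makeup the genes share.

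The search covered genes with a mean of at least 1 CPM, 16083 before those on chromosome 18 were left out. Of these, the genes whose log2 CPM followed each member most closely over the 18 samples were as follows, with Pearson's r. Group means were not removed, so differences between the genotype groups enter these values. Axl was nearest to Itgax (0.84), which encodes the integrin CD11c, and to Zmynd15 (0.81). Cd36 was nearest to Lyz2 (0.87), the lysozyme gene of myeloid cells, and to Glipr1 (0.86), and Msr1 to Lilrb4a (0.92), an inhibitory receptor gene, and to Hcar2 (0.88). Mertk was nearest to Ptprj and Srgap2 (0.98 each), Gas6 to Acss1 and Mgat1 (0.94 each), and Stab1 to Trpm2 and Pik3cd (0.97 each). Tyro3 was nearest to Rasal1 (0.97) and Pik3c2b (0.97) and Pros1 to Plekhf2 (0.98) and Papola (0.97). Lrp1 was nearest to Mef2d (0.97) and Gm44951 (0.95) and Scarb1 to Chka and Eif2ak4 (0.87 each).

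The wider pathway was read from 55 other genes in 4 lists: bridging molecules and other apoptotic-cell receptors (15 genes), engulfment machinery and regulators of TAM receptors (18), other scavenger receptors (12) and the lipoprotein receptor family to which Lrp1 belongs (10). edgeR called 0 genes of any list in any of the 5 comparisons. DESeq2 called 1, Gulp1, an engulfment adaptor, in Q175 against WT, and 0 in the other comparisons. Gulp1 was at 2.89 ± 1.55 CPM in Q175 and 1.03 ± 0.183 in WT (SD, 5 samples each, DESeq2 adjusted p = 0.0531, edgeR adjusted p = 0.345). Astrocyte markers were at 22.9 to 36.7 CPM in WT and 48.1 to 142 in Q175, without overlap. With a score of astrocyte, neuronal and oligodendrocyte markers as a term, 217 genes were higher at an unadjusted edgeR p under 0.05, against 1000 without it. The astrocyte markers in that score did not overlap between these groups, so the term and the genotype cannot be told apart in this fit. The part of other cell types in the values of Gulp1 and the other list genes was not tested.

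A gene was tested if it reached 1 CPM in any sample compared, so one that did so in the higher group alone had its direction set by that filter. The counts and medians over the lists are therefore restricted to genes that reached 1 CPM in both groups (in all 4 for the interaction), a choice made after the data were seen. The shares and medians over all genes set beside them cover every gene tested, without that restriction. In Q175;Tyrobp-KO against Q175 these were 12, 17, 9 and 9 genes in that order, of which 2 were higher and 1 lower at an unadjusted p under 0.05, near the shares of all genes given above (3.45% and 4.56%). Among bridging molecules 0 were higher and 1 lower: Lgals3, which encodes galectin-3, had a log2 fold change of -1.30 ± 0.45, and Megf10, an engulfment receptor of astrocytes, -0.33 ± 0.17. In the engulfment list 1 was higher, Elmo1 (0.44 ± 0.17), a partner of DOCK proteins in Rac activation, 0 were lower, and Gulp1 had -0.74 ± 0.49. Of the scavenger receptors 0 were higher or lower. The list genes with the smallest p were Cd163, the haemoglobin scavenger receptor and a marker of border-associated macrophages, and Scara5, which reached 1 CPM in Q175 samples alone and are given as levels: 1.27 ± 0.998 CPM in Q175 and 0.311 ± 0.227 in Q175;Tyrobp-KO for Cd163, and 0.673 ± 1.08 and 0.0713 ± 0.0487 for Scara5 (SD, 5 samples each). In the lipoprotein receptor family 1 was higher, Lrp6 (0.28 ± 0.12), 0 were lower, and Lrp1b had -0.58 ± 0.28. Border-associated macrophage markers, a list that holds Cd163 and Mrc1, were at 0.553 to 2.51 CPM in Q175 and 0.602 to 1.18 in Q175;Tyrobp-KO, and their part in the value of Cd163 was not tested. The list medians were 0.00020, -0.050, -0.44 and 0.039, beside -0.045 over all genes.

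In the pooled comparison 9 of 48 list genes were lower in the deleted groups and 1 higher at an unadjusted p under 0.05, where more of all genes were lower (7.41%) than higher (1.4%) as well. The scavenger receptors Cxcl16 and Olr1 had -0.55 ± 0.16 and -0.98 ± 0.32, and 3 of 10 genes in their list (Scarf1 as well) were lower and 0 higher. Of the bridging molecules 2 were lower, Lgals3 (-1.07 ± 0.36) and Megf10 (-0.42 ± 0.17), and 0 higher. In the engulfment list 1 was higher, Socs1 (0.63 ± 0.23), a brake on cytokine signalling, and 2 lower, Elmo2 (-0.22 ± 0.098) and Nr1h3. In the lipoprotein receptor family 2 were lower, Vldlr (-0.43 ± 0.15) and Lrp1b (-0.66 ± 0.29), and 0 higher. The medians of the lists were 0.13, -0.047, -0.030 and -0.033, beside -0.022 over all genes. For Q175 against WT, 4 of 48 genes were higher at that p (Mfge8, Gulp1, Scara3 and Lrp4) and 1 lower (Adam17), beside 5.47% and 0.766% of all genes. Astrocyte markers were also higher in every Q175 sample than in any WT sample. For Tyrobp-KO against WT 1 of 48 was higher (Socs1) and 3 lower (Olr1, Cxcl16 and Vldlr), beside 3.66% and 3.15%, and for the interaction 0 of 47 were higher and 1 lower (Mrc1), beside 2.99% and 3.02%. Scarf1, Nr1h3 and the genes of these last 3 comparisons other than Gulp1 are named after their values were seen.

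How far the values of the members depended on single samples and on the processing is shown for the 6 genes with the largest differences. Cd36 stayed between -1.90 and -1.14 in Q175;Tyrobp-KO against Q175 over 22 alternatives, Axl between -1.25 and -0.79, Msr1 between -1.34 and -0.60 and Gas6 between 0.32 and 0.61. Tyro3 ran from -0.81 to -0.22, and Mertk from 0.27 to 0.61. The limits of -1.25 for Axl, 0.27 for Mertk, -0.22 for Tyro3 and 0.32 for Gas6 came with the microglial marker level as a term and -0.79 for Axl with the length balance, and the other limits with 1 sample left out. Over all alternatives and comparisons the smallest adjusted p of any member was 0.146, for Axl in the pooled comparison by DESeq2.

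**Figure D5:**
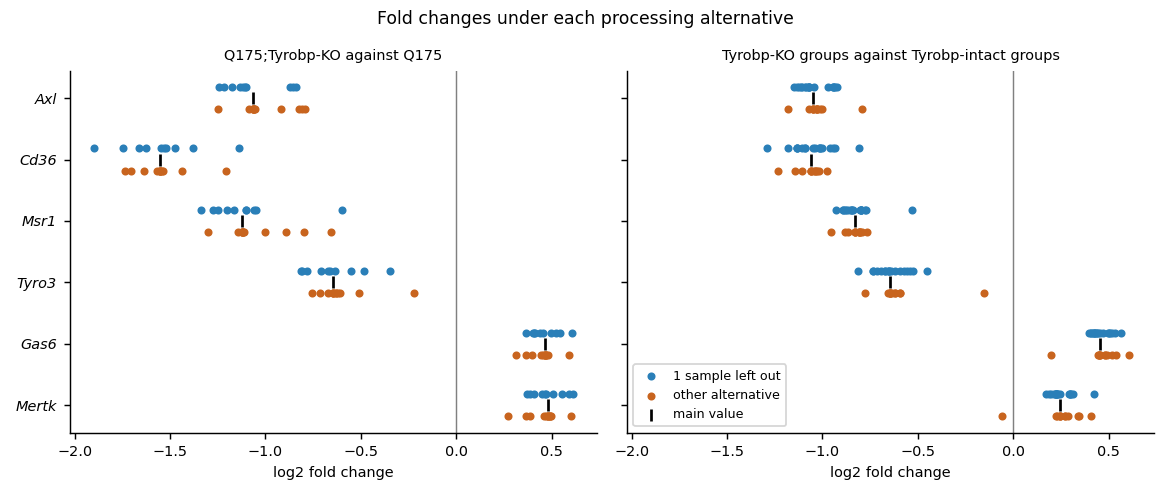
Log2 fold change of 6 genes in Q175;Tyrobp-KO against Q175 (left) and in the pooled comparison (right): main value (black bar), values with 1 sample left out (blue) and under the other alternatives (orange). Axl, Cd36 and Msr1 stay below 0 and Gas6 above 0 in both panels, whereas Mertk reaches -0.058 in the pooled comparison with the microglial marker level as a term.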

How the data were processed

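Striatal microglia enriched with CD11b beads were sequenced (SMART-Seq v4, non-directional). Per the methods and labels, the authors aligned reads with STAR and counted them with featureCounts; the deposited values are raw counts on 55536 Ensembl genes, all matched to GENCODE M21 (GRCm38). The methods name GRCm38 and the processing notes GRCh38, a human build. 2 columns with no labelled sample were not used.

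Counts were tested with edgeR 4.0.16 (TMM, quasi-likelihood test, R 4.3.3) on genes that reached 1 CPM in 1 or more samples compared, at a Benjamini-Hochberg FDR of 0.1 over all genes. Pairwise comparisons used the samples of their groups, while the pooled comparison and interaction used all 18. SE is the fold change divided by the root of the F statistic. Alternatives were DESeq2 1.42.0, other scalings, filters, robust fitting, the main fit at an FDR of 0.05, terms for sex and marker levels, and leaving out samples. Marker levels are geometric means of CPM plus 1. Length balance is the median log2 deviation of genes with over 8520 exonic bases minus that of genes under 3072. Relations were tested with 100000 permutations. The tests were tried on simulated data.

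The members and lists were chosen with earlier results of these data known. All members were named. Pathway genes were given with values in 2 comparisons as the 2 with the smallest p per list, and elsewhere where DESeq2 called one; others counted at an unadjusted p under 0.05 were named after their values were seen. 1 gene was taken out of the lists and is not reported here.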

Additional observations from a re-analysis of the deposited data

Results flagged for a closer look

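Lrp1 was at 1485 CPM in Q175 replicate 9, far above the other Q175 samples (718 to 907 CPM), with a gap of 0.754 of the range of the group. Stab1 was at 187 CPM in Q175 replicate 4, far below the others (320 to 369 CPM), with a gap of 0.732 of the range. Both exceed Dixon's 95% critical value of 0.71 for 5 samples. Of 30 groups of values tested, 2 stood out in this way, and chance alone gives about 1 in 20. Q175 replicate 9 had a length balance of 0.429 on the log2 scale, against -0.273 to 0.0995 in the other Q175 samples. Q175 replicate 4 had microglial markers at 479 CPM, against 712 to 1094 in the others. The part of these measures in the flagged values was not tested.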

How the results depend on the processing

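No member was called at an FDR of 0.1 in any of 126 alternatives, and the smallest adjusted p was 0.146. In each comparison the alternative with an FDR of 0.05 was the main fit read at that limit. Robust fitting changed the errors but not the fold changes. The values of both alternatives therefore kept their sign by construction and are counted here. Of 1260 values of single members under an alternative, 1136 kept their sign and 124, in 28 of 50 results, changed it, none of them past the FDR. The cause was not tested. The member values that follow are those that changed sign, and shifts that kept the sign are not listed. With the microglial marker level as a term, the values became 0.16 for Axl and 0.060 for Gas6 in Q175 against WT, -0.036 for Stab1 in Q175;Tyrobp-KO against Q175, 0.028 for Tyro3 and -0.42 for Stab1 in Tyrobp-KO against WT, -0.058 for Mertk and -0.23 for Stab1 in the pooled comparison. On leaving out both WT replicates 7 and 8, the values became 0.64 for Axl, 0.12 for Mertk, -0.083 for Tyro3, 0.32 for Gas6, 0.38 for Lrp1, 0.56 for Stab1 and 0.029 for Scarb1 in Q175 against WT, 0.36 for Mertk, -0.27 for Pros1 and 0.18 for Lrp1 in Tyrobp-KO against WT, 0.14 for Lrp1 in the pooled comparison, -0.37 for Gas6, 0.24 for Pros1 and -0.47 for Stab1 in the interaction. With the score of other cell types as a term, the values became 0.18 for Mertk, 0.16 for Gas6, -1.07 for Msr1 and 0.29 for Scarb1 in Q175 against WT, 0.26 for Mertk in Tyrobp-KO against WT, 0.49 for Axl and -0.16 for Gas6 in the interaction. With sex as a term, the values became -0.49 for Msr1 in Q175 against WT, -0.031 for Lrp1 in Q175;Tyrobp-KO against Q175, -0.074 for Stab1 in Tyrobp-KO against WT, 0.71 for Axl and -0.037 for Gas6 in the interaction. With the transcript length balance as a term, the values became -0.23 for Msr1 in Q175 against WT, 0.56 for Mertk, -0.47 for Pros1, 0.66 for Lrp1 and 0.010 for Scarb1 in Tyrobp-KO against WT, 0.015 for Lrp1 in the pooled comparison, 0.28 for Axl, -0.036 for Tyro3, -0.26 for Gas6, 0.26 for Pros1, 0.32 for Msr1 and -0.078 for Stab1 in the interaction. With total counts as scaling, the values became 0.035 for Pros1 and 0.12 for Scarb1 in Q175;Tyrobp-KO against Q175, -0.026 for Pros1 and -0.016 for Stab1 in Tyrobp-KO against WT, 0.0090 for Pros1 in the pooled comparison, 0.19 for Axl and 0.060 for Pros1 in the interaction. With DESeq2, the values became 0.011 for Scarb1 in Q175;Tyrobp-KO against Q175, -0.0054 for Pros1 in Tyrobp-KO against WT, -0.017 for Tyro3 in the interaction. With DESeq2 size factors, the values became 0.010 for Scarb1 in Q175;Tyrobp-KO against Q175, -0.0054 for Pros1 in Tyrobp-KO against WT, -0.016 for Tyro3 in the interaction. With no filter, the values became 0.019 for Scarb1 in Q175;Tyrobp-KO against Q175, -0.0023 for Pros1 in Tyrobp-KO against WT, -0.023 for Tyro3 and -0.035 for Gas6 in the interaction. With filterByExpr, the values became -0.0011 for Pros1 in Tyrobp-KO against WT. With 1 fit over all 4 groups, the values became -0.071 for Pros1 and -0.052 for Stab1 in Tyrobp-KO against WT. With 1 sample left out at a time, among results whose sign changed, the values ran from -0.29 to 0.19 for Axl, -0.20 to 0.084 for Gas6, -0.46 to 0.29 for Msr1 and -0.30 to 0.12 for Stab1 in Q175 against WT, -0.18 to 0.014 for Pros1 and -0.12 to 0.070 for Scarb1 in Q175;Tyrobp-KO against Q175, -0.17 to 0.25 for Mertk, -0.12 to 0.13 for Pros1 and -0.14 to 0.27 for Stab1 in Tyrobp-KO against WT, -0.34 to 0.24 for Axl, -0.28 to 0.58 for Tyro3, -0.17 to 0.17 for Gas6, -0.16 to 0.085 for Pros1 and -0.032 to 0.40 for Stab1 in the interaction. Of 437 values of 17 pathway results, 434 kept their side of the FDR and 3 passed it: Gulp1 in Q175 against WT (1.47) by DESeq2, and Cxcl16 (-0.77) and Lgals3 (-1.46) in the pooled comparison with the microglial marker level as a term. The terms for the microglial level and the length balance and the leaving out of both WT replicates were chosen after seeing the data. With the microglial term edgeR called 504 genes in Tyrobp-KO against WT, 438 of them higher, where the main fit called 4. No paired analysis was possible because the groups share no replicate numbers. Cd36 and Msr1, with as few as 17 and 19 counts in a sample, are limited by depth, and 3 Tyrobp-KO samples limit Tyrobp-KO against WT and the interaction.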
